A study of Mus musculus with 5 samples.

Results

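Smarca4 binding was examined at the genes of 7 transcription factors of the endoderm, Gata4, Gata6, Sox17, Sox7, Foxa1, Foxa2 and Hnf4a, in differentiating mouse embryonic stem cells (mESCs). The peaks described were chosen by position, as those overlapping the body of 1 of these genes or the 10 kb on either side of it (GENCODE vM21 on mm10). They numbered 32 of the 78911 peaks in 4 lists. Presence in a list was itself set by the Smarca4 signal, so numbers of peaks and the reads of a library in its own peaks are given as a description. The BAF complex moves nucleosomes with the energy of ATP hydrolysis, which its subunit Smarca4 carries out, and Smarcc1 belongs to the structural core of the same complex. Smarca4 occupancy was measured by ChIP-seq at day 4 of differentiation, when female cells establish X chromosome inactivation, with and without depletion of Smarcc1.

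The groups were female (XX) mESCs with a retroviral hairpin against Smarcc1, labelled Smarcc1.6 (female knockdown), female mESCs with the non-silencing control hairpin Nons (female Nons), male (XY) mESCs with the Smarcc1 hairpin (male knockdown) and male mESCs with Nons (male Nons). All carried fluorescent reporters at the X-linked gene Hprt and were labelled C57/Bl6. All were differentiated by withdrawal of 2i medium, without direction toward a germ layer, and were selected for the hairpin with puromycin. Each group had 1 library, and 1 input library of chromatin without immunoprecipitation served all 4. Differences between groups therefore have no replicate check, and every interval below is a 95% interval that covers counting error only. RNA was not measured in these libraries, so neither the depth of the knockdown nor the share of cells on the way to endoderm was checked in them. In other samples the paper measured the knockdown of Smarcc1 by qRT-PCR and RNA-seq. It also measured Gata4 and Gata6 by qRT-PCR in female mESCs after knockdown, and described the results as compatible with normal differentiation.

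Depth was low and unequal. Each deposited value was a whole number of reads multiplied by a step of 16.7 in female knockdown, 8.6 in female Nons, 7.03 in male knockdown and 4.59 in male Nons, which scales every library to the depth of the input. Depth was thus 5.99% of the input in female knockdown, 11.6% in female Nons, 14.2% in male knockdown and 21.8% in male Nons. Median reads per peak were 5 in the list of female knockdown, 7 in female Nons, 8 in male knockdown and 9 in male Nons. Values called reads below are recovered whole reads. Scaled reads are those multiplied by the step.

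The 7 proteins belong to 4 families of DNA-binding factors that act together when endoderm forms. Gata4 and Gata6 are zinc finger factors, and Gata6 is required for the primitive endoderm of the blastocyst, the lineage that gives rise to the yolk sac endoderm. Sox17 and Sox7 are HMG box factors of the SoxF group, with roles in endoderm and in vascular endothelium. Foxa1 and Foxa2 are forkhead factors, called pioneer factors because they can bind DNA that is wrapped on a nucleosome. Hnf4a is a nuclear receptor of visceral endoderm and liver. In undifferentiated mESCs these genes are largely silent, with start sites in CpG-rich DNA, and forced expression of Gata6, Gata4 or Sox17 drives mESCs toward primitive endoderm.

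The positions of the 32 peaks are shown by distance from the 5′ end of each gene in the map of peaks. Gata4 had 9, Hnf4a 8, Foxa2 6, Sox17 4, Gata6 3 and Sox7 2 peaks, and Foxa1 had none. Female Nons contributed 7, male knockdown 10 and male Nons 15, whereas the female knockdown list held no peak at any of the 7 genes. The peaks fell on 27 separate regions of the genome, since 5 regions were called in 2 lists. That is 18.5% of the 27 (6.3 to 38.1), against 8.84% of other autosomal regions in 2 or more lists. Overlap between lists was low throughout. Of all autosomal peaks, 14.3% in female Nons and 14.3% in male knockdown overlapped a male Nons peak.

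**Figure D1:**
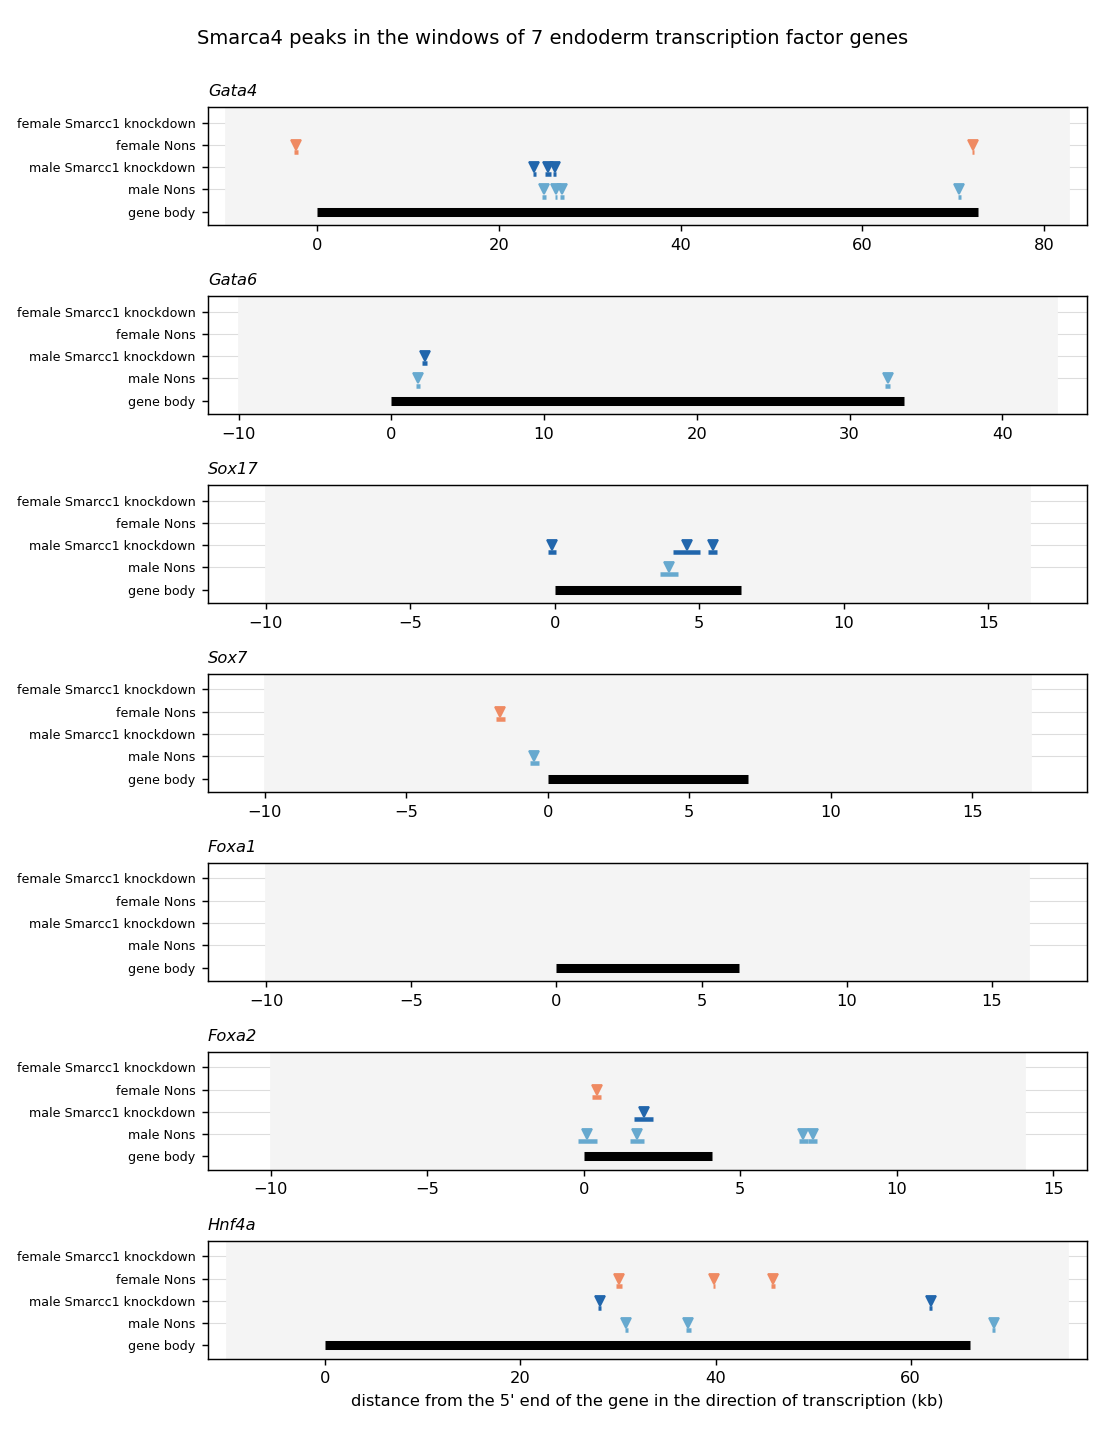
Smarca4 peaks at each gene. The x axis gives the distance from the 5′ end of the gene in kb along the direction of transcription. Rows are the 4 peak lists and, in black, the gene body. Bars under the triangles show peak width, and the grey area is the window. The row of female knockdown is empty at all 7 genes, and no list has a peak at Foxa1.

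Sequences at the peak centres are printed as examples, each covering only part of its peak. The mm10 sequence is from RefSeq GRCm38.p6, 5′ to 3′ on the strand of the gene, with every CpG dinucleotide in capitals. CpGs were more frequent in the stretches of Sox17 and Foxa2 than in those of Hnf4a, Sox7 and the Gata4 intron. This order is that of the printed stretches, not of the peaks. The stretches of 120 bases below are from the peak of highest fold over input of each gene, except for Gata4, where the highest lay in a UTR and the next is shown. The Sox17 stretch is chr1:4491841-4491960 on the minus strand, in a peak on the coding exon called in male knockdown. It held 8 CpGs. The Foxa2 stretch is chr2:148044991-148045110 on the minus strand, in an intronic peak called in male knockdown, with 6 CpGs. The Hnf4a stretch is chr2:163546591-163546710 on the plus strand, in an intronic peak called in female Nons at an internal start site, with 3 CpGs. The Sox7 stretch is chr14:63941941-63942060 on the plus strand, in a peak upstream of the gene called in female Nons, with 2 CpGs. The Gata4 stretch is chr14:63246241-63246360 on the minus strand, in an intronic peak called in male knockdown, with 2 CpGs. In the central 300 bp, however, this Gata4 peak held 13 CpGs and the Foxa2 peak of the stretch above held 11.
Sox17, coding exon: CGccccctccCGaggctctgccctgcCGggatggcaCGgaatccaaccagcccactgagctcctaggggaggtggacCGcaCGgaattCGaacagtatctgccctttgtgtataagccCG
Foxa2, intron: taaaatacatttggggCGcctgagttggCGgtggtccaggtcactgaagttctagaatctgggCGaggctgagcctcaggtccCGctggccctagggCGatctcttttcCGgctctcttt
Hnf4a, internal start site: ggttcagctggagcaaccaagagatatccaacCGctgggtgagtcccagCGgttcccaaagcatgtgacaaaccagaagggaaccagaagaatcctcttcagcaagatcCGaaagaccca
Sox7, upstream: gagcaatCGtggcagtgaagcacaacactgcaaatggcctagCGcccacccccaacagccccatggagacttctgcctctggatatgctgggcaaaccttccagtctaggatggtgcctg
Gata4, intron: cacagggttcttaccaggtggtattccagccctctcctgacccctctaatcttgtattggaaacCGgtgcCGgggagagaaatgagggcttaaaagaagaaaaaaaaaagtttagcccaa

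A further pair of stretches was picked after the values were seen, because both lie directly at a start site. The Gata4 stretch, chr14:63245341-63245460 on the minus strand, lies just upstream of an internal start site and held 12 CpGs. It is in a peak of male Nons that overlaps a peak of male knockdown, and it contains the motif of the HNF4 family (letters TGGACTTTG) and GGGCGG, the GC box recognised by SP and KLF factors. The Sox17 stretch, chr1:4497391-4497510 on the minus strand, is in the peak at the 5′ end of the gene called in male knockdown, which also overlaps the gene Gm37587. It held 10 CpGs and a GC box read on the other strand.
Gata4, internal start site: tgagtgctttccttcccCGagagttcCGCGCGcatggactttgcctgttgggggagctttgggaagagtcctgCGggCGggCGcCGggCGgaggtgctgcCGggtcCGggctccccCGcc
Sox17, 5′ end: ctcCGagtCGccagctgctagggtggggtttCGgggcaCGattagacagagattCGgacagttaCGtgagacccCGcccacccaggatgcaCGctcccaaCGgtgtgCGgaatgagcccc

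Counted by gene, more of the 7 genes than of protein-coding genes at large had a peak in 3 of the lists, and fewer in the remaining list. In female knockdown 0 of 7 genes had a peak, against 11.1% of the 20807 autosomal protein-coding genes, and in female Nons 4 of 7 had one, against 44%. In male knockdown 5 of 7 genes had a peak, against 41.5%, and in male Nons 6 of 7, against 58.2%. With only 7 genes, none of the counts, those of 0 and 6 included, stands clear of its background. No test was made, and the genes were proposed with results of these data known. Among 14448 protein-coding genes with windows of a length within the range of these 7, the shares were 9.98% in female knockdown, 43.2% in female Nons, 41.1% in male knockdown and 57.6% in male Nons.

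**Figure D2:**
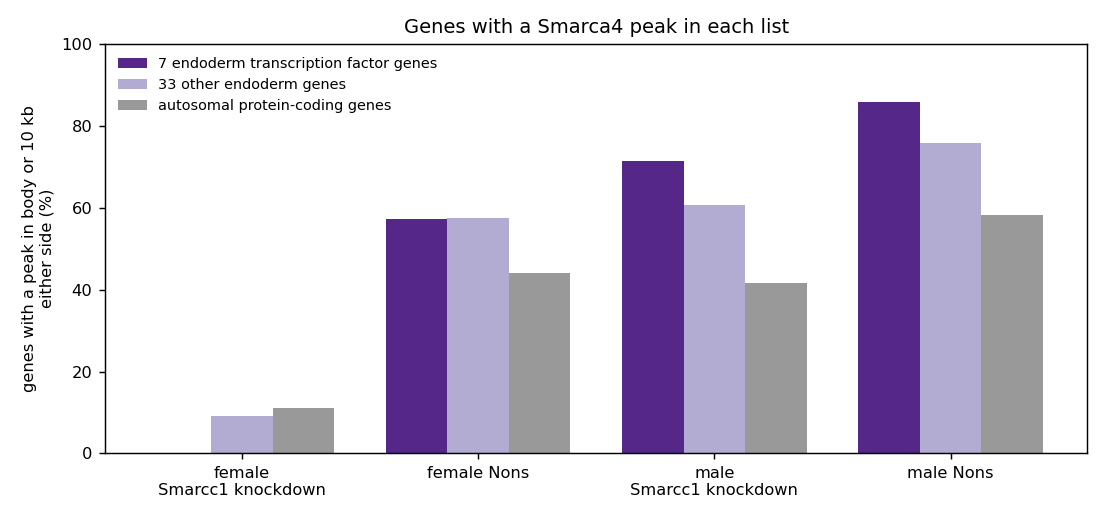
Share of genes with a Smarca4 peak in the body or the 10 kb on either side (y axis, %), in each of the 4 lists (x axis). Bars are the 7 endoderm transcription factor genes, 33 other endoderm genes and all autosomal protein-coding genes. The 7 genes stand at 0% in female knockdown and above the protein-coding share in the other 3 lists. With only 7 genes, none of these shares stands clear of the protein-coding share. Windows of the other endoderm genes were not matched for length.

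The absence of peaks in female knockdown could not be told apart from its low depth. The list held 2726 autosomal peaks, and 0 of 2726 allows a share of up to 0.11%, taken as a 1-sided limit of 3 counts. The exact Poisson interval for the 0 peaks was 0 to 3.69. Peaks at the 7 genes made up 0.0334% of the female Nons list (7 peaks, exact Poisson interval 2.81 to 14.4), 0.0599% of the male knockdown list (10 peaks, 4.8 to 18.4) and 0.0394% of the male Nons list (15 peaks, 8.4 to 24.7). All 3 shares lie under that limit. If all libraries had been as shallow as female knockdown, and peaks of at least 5 reads had been retained, 1.98 peaks would be expected at these genes in female Nons, 3.75 in male knockdown and 1.29 in male Nons, so the order of the lists depended on depth. The same thinning left 7767 autosomal peaks in female Nons, 4508 in male knockdown and 5026 in male Nons.

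Reads could be counted in each region in every library, also in those that had not called it, but the regions themselves were set by the calls. Summed over the 27 regions there were 23 reads in female knockdown, 88 in female Nons, 147 in male knockdown and 151 in male Nons, with 78 in the input. After scaling, the sums were 384 (exact Poisson interval 244 to 576) in female knockdown, 757 (607 to 933) in female Nons, 1033 (873 to 1214) in male knockdown and 692 (586 to 812) in male Nons. Female knockdown was thus the lowest and male knockdown the highest. These sums favour the libraries that called the regions: in 24 of the 27 regions the highest scaled value was in a library that called it. No region held more than 2 reads in female knockdown, and 12 of the 27 held none.

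**Figure D3:**
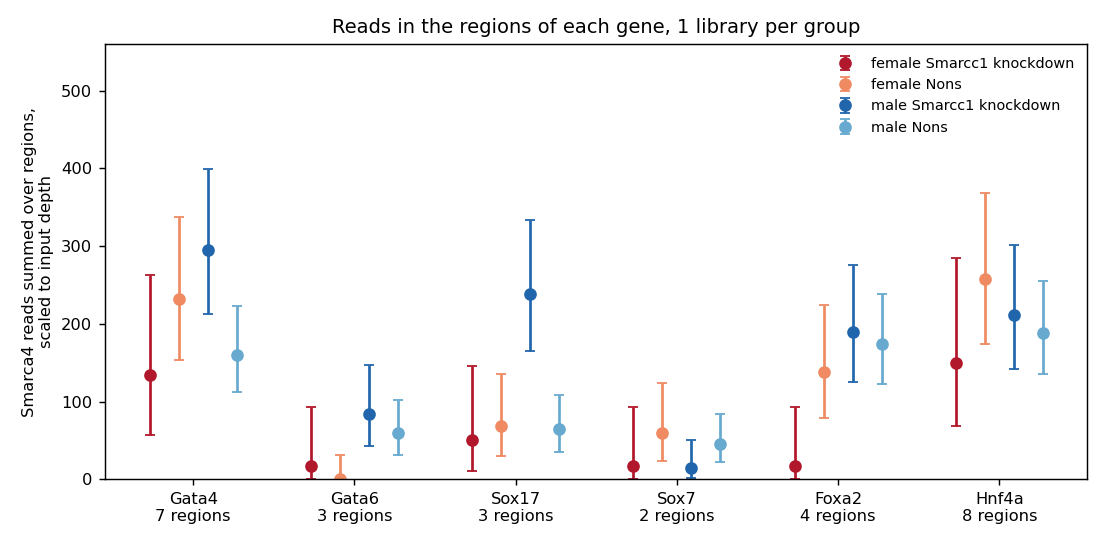
Smarca4 reads summed over the regions of each gene and scaled to input depth (y axis), with exact Poisson 95% intervals, for the 4 libraries at each gene (x axis, with the number of regions). Foxa1 has no region. At Sox17 male knockdown stands at 239, above the other 3 libraries, while at Hnf4a the 4 intervals overlap.

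Of the GATA factors, Gata4 (chr14:63198922-63271692, minus strand) had its peaks in groups. A cluster of 6 peaks in 4 regions lay around its internal start sites in the male lists alone, between about 24 and 27 kb into the gene. The strongest of these, chr14:63246001-63246600, had 2 reads in female knockdown, 3 in female Nons, 15 in male knockdown and 9 in male Nons, with 6 in the input. It overlapped a male Nons peak, chr14:63246451-63246900, with 0 reads in female knockdown, 2 in female Nons, 6 in male knockdown, 10 in male Nons and 3 in the input. Both male libraries were thus above both female libraries in raw reads. Scaled, the stronger peak stood at 33.4 in female knockdown, 25.8 in female Nons, 105 in male knockdown and 41.3 in male Nons. At the internal start site itself, chr14:63245401-63245700 was called in male knockdown, with 0 reads in female knockdown, 1 in female Nons, 8 in male knockdown, 5 in male Nons and 3 in the input. The male Nons peak overlapping it, chr14:63245251-63245550, had 0 reads in each female library, 6 in male knockdown, 5 in male Nons and 4 in the input. This is the pair that holds the HNF4 motif and GC boxes printed above. Downstream of the start site, chr14:63244501-63244950 had 2 reads in female knockdown, 2 in female Nons, 3 in male knockdown, 10 in male Nons and 4 in the input.

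The peaks called in female Nons at Gata4 lay elsewhere, at the ends of the gene. Upstream of the 5′ end, chr14:63273751-63274200 had 2 reads in female knockdown, 8 in female Nons, 3 in male knockdown, 1 in male Nons and 6 in the input. At the other end, in the 3′ UTR, chr14:63199351-63199650 had 1 read in female knockdown, 6 in female Nons, 5 in male knockdown, 0 in male Nons and 1 in the input. The remaining peaks of Gata4 were chr14:63247651-63247950 in male knockdown, with 7 reads there, and chr14:63200851-63201150 in male Nons, also with 7. The latter and the 3′ UTR peak lay nearer to a start site of another gene (6995 and 5495 bp) than to one of Gata4 (12457 and 13957 bp). The gene Neil2 also overlaps this window. Summed over the 7 regions of Gata4, scaled reads were 134 (57.7 to 263) in female knockdown, 232 (153 to 338) in female Nons, 295 (213 to 399) in male knockdown and 160 (112 to 223) in male Nons.

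Gata6 (chr18:11052064-11085635, plus strand) was called in the male lists alone, and nearly all of its reads were male. In an intron near its 5′ end, chr18:11053651-11053950 had 0 reads in female knockdown, 0 in female Nons, 2 in male knockdown and 8 in male Nons, with 0 in the input. Next to it, on a coding exon, chr18:11054101-11054400 had 0 reads in female knockdown, 0 in female Nons, 7 in male knockdown, 2 in male Nons and 2 in the input. The libraries of the male cells thus led at neighbouring positions, each in its own peak. The third peak, chr18:11084401-11084700 in a UTR near the 3′ end, was called in male Nons on 3 reads, with 1 in female knockdown, 0 in female Nons, 3 in male knockdown and 0 in the input. Over the 3 regions female knockdown had 1 read and female Nons 0, against 12 in male knockdown and 13 in male Nons. Scaled, female Nons was at 0 (0 to 31.7) and male Nons at 59.6 (31.7 to 102), and the interval of female knockdown, 0.423 to 93.1, overlapped that of male knockdown, 43.6 to 147. A long noncoding RNA gene, 1010001N08Rik, also overlaps the window, but none of the 3 peaks. The start site nearest to each peak was one of Gata6, at 607, 638 and 25354 bp. On which gene a peak acts was not tested.

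Of the SoxF factors, Sox17 (chr1:4490931-4497354, minus strand) had more reads in male knockdown than in the other libraries. It had 3 peaks in male knockdown and 1 in male Nons, and none in either female list. The strongest of all 32 peaks by reads was here, chr1:4492351-4493250, with 1 read in female knockdown, 4 in female Nons, 19 in male knockdown and 11 in male Nons, and 7 in the input. It overlapped the male Nons peak chr1:4493101-4493700, which had 2 reads in female knockdown, 3 in female Nons, 6 in male knockdown, 15 in male Nons and 9 in the input. Both male libraries had reads in both peaks, with more in male knockdown in one and more in male Nons in the other. At the 5′ end of the gene, chr1:4497301-4497600 had 2 reads in female knockdown, 4 in female Nons, 8 in male knockdown and 2 in male Nons, with 1 in the input. This peak also overlapped another annotated gene, Gm37587. On the coding exon, chr1:4491751-4492050 had 0 reads in female knockdown, 0 in female Nons, 7 in male knockdown, 1 in male Nons and 0 in the input. Over the 3 regions, scaled reads were 50.1 (10.3 to 146) in female knockdown, 68.8 (29.7 to 136) in female Nons, 239 (165 to 334) in male knockdown and 64.2 (35.1 to 108) in male Nons. The intervals of the male libraries do not overlap, but all 3 regions had been called in male knockdown, so the sum is no independent measure.

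Sox7 (chr14:63943673-63950732, plus strand) had 1 peak in each Nons list, both before its only annotated start site, and none in a knockdown list. The male Nons peak, chr14:63943051-63943350, had 1 read in female knockdown, 1 in female Nons, 2 in male knockdown, 8 in male Nons and 3 in the input. Its centre lay 473 bp before the start site. The female Nons peak, chr14:63941851-63942150, had its centre 1673 bp before the start site, with 0 reads in female knockdown, 6 in female Nons, 0 in male knockdown, 2 in male Nons and 0 in the input. Over both regions, scaled reads were 16.7 (0.423 to 93.1) in female knockdown, 60.2 (24.2 to 124) in female Nons, 14.1 (1.7 to 50.8) in male knockdown and 45.9 (22 to 84.3) in male Nons, with overlapping intervals. Each was highest in the library that called it, and the peaks of female and male Nons were at different positions.

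The forkhead genes differed most from each other. Foxa1 (chr12:57540628-57546916, minus strand) had no peak in any list, and the nearest one lay 29.4 kb away, in male knockdown. Having no peak was common among genes. The rank of Foxa1 by peaks per 10 kb, 14371 of 20807, was shared by every autosomal protein-coding gene without a peak, and their lower quartile was 0. Of the 7 windows that of Foxa1 had the most CpGs per kb, 27.5, against 13.4 to 23 in the others. Foxa2 (chr2:148042877-148046969, minus strand) had the densest peaks of the 7 genes, with 2.49 per 10 kb of window over the 4 lists. That was above 90.3% of protein-coding genes, whose median was 0.367.

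At Foxa2 there were 2 regions in or beside the gene, each called in 2 lists. The intronic region chr2:148044751-148045350, called in male knockdown, had 1 read in female knockdown, 8 in female Nons, 14 in male knockdown, 14 in male Nons and 4 in the input. The overlapping male Nons peak, chr2:148045051-148045500, had 1 read in female knockdown, 8 in female Nons, 9 in male knockdown, 11 in male Nons and 3 in the input. In the first of these male knockdown and male Nons were level in raw reads, but their depth differed. Scaled reads were 98.4 in male knockdown, 64.2 in male Nons, 68.8 in female Nons and 16.7 in female knockdown. Female Nons had more reads here than the 6 of its smallest listed peak without being listed. At the 5′ start site, chr2:148046551-148047150 had 0 reads in female knockdown, 6 in female Nons, 5 in male knockdown, 12 in male Nons and 6 in the input. The female Nons peak overlapping it, chr2:148046401-148046700, had 0 reads in female knockdown, 6 in female Nons, 3 in male knockdown, 4 in male Nons and 3 in the input. It was the only region at the 7 genes called in both Nons lists. Over the 4 regions female knockdown had 1 read, female Nons 16, male knockdown 27 and male Nons 38. Scaled, these were 16.7 (0.423 to 93.1) in female knockdown, 138 (78.7 to 224) in female Nons, 190 (125 to 276) in male knockdown and 174 (123 to 239) in male Nons, so that female knockdown lay below both male libraries and overlapped female Nons in its interval. All 4 regions had been called in male Nons and none in female knockdown. A pair of abutting male Nons peaks downstream of Foxa2, with 7 and 5 reads in that library, lay within 1000 bp of a start site of the long noncoding RNA gene 9030622O22Rik rather than of Foxa2.

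Hnf4a (chr2:163506808-163572910, plus strand) had 8 peaks in 8 separate regions, with no overlap between lists. Such overlap was uncommon in general, at 8.84% of the autosomal regions outside the 7 genes. In female Nons they were 3, in male knockdown 2 and in male Nons 3. The strongest, chr2:163536601-163537200, was called in female Nons, with 2 reads in female knockdown, 12 in female Nons, 2 in male knockdown, 3 in male Nons and 3 in the input. At an internal start site, chr2:163546501-163546800 had 2 reads in female knockdown, 6 in female Nons, 2 in male knockdown, 3 in male Nons and 0 in the input. The strongest male knockdown peak, chr2:163568701-163569000, had 2 reads in female knockdown, 1 in female Nons, 9 in male knockdown, 4 in male Nons and 4 in the input. That of male Nons, chr2:163543801-163544250, had 1 read in female knockdown, 0 in female Nons, 4 in male knockdown, 11 in male Nons and 5 in the input. The sums over the gene overlapped, at 150 (68.7 to 285) scaled reads in female knockdown, 258 (174 to 368) in female Nons, 211 (142 to 301) in male knockdown and 188 (135 to 255) in male Nons. The other 4 peaks held 6 to 7 reads in the library that called them, and 3 of the 8, all in an intron, also overlapped the antisense gene Hnf4aos. The peak just outside the 10 kb limit of Hnf4a lay 10.3 kb away and had 13 reads in female Nons, whereas the farthest one inside lay 2.24 kb beyond the gene.

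Knockdown and Nons were compared within a sex in regions that the lists of the other sex had called, some of which had been called in a compared library as well. In 21 such regions of the 7 genes, female knockdown had 16 reads and female Nons 43, a depth-scaled ratio of 0.723 (exact conditional interval 0.38 to 1.31). The ratio over the other 52162 autosomal regions was 0.628 (0.622 to 0.634), so the lower Smarca4 signal of female knockdown was general. The ratio at the 7 genes over that elsewhere was 1.15 (0.605 to 2.09), and a difference was not detectable at this depth. In 7 regions male knockdown had 21 reads and male Nons 28, a ratio of 1.15 (0.62 to 2.1), against 0.972 (0.963 to 0.981) in other regions. The ratio of these was 1.18 (0.638 to 2.16). Without Foxa2 the female ratio was 1.08 and without Gata4 the male ratio was 0.738, so neither direction was steady. In regions that neither compared library had called, the female ratio was 0.84 (0.436 to 1.55), against 0.692 (0.684 to 0.7) elsewhere. The male ratio in such regions was 1.53 (0.717 to 3.27), against 1.04 (1.03 to 1.05).

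**Figure D4:**
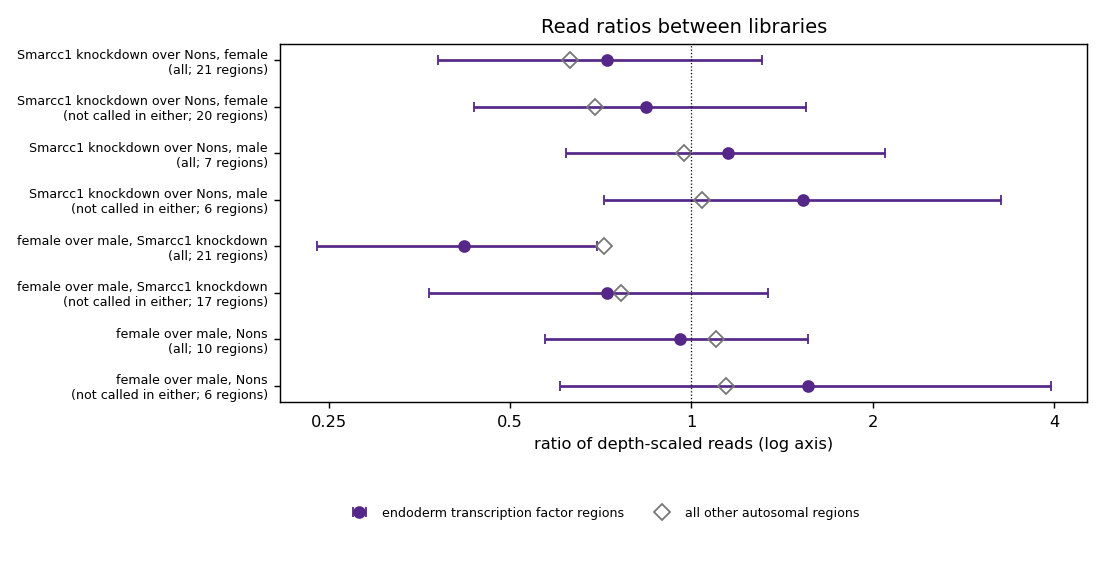
Ratios of depth-scaled Smarca4 reads between libraries (x axis, log scale) with exact 95% intervals. Purple points are the regions of the endoderm transcription factor genes and grey diamonds all other autosomal regions, for the 4 comparisons (rows), with and without regions called in a compared library. The interval lies off 1 and off the diamond only for female over male knockdown with all 21 regions.

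Female and male cells were compared within a hairpin in regions called with the other hairpin. In 21 regions female knockdown had 18 reads and male knockdown 102, a ratio of 0.42 (0.239 to 0.697), against 0.716 (0.709 to 0.723) in other regions. The signal of female knockdown relative to male knockdown was thus lower at these genes than elsewhere, by a factor of 0.586 (0.334 to 0.974). That result did not hold without the regions that male knockdown had also called. In the remaining 17 regions there were 14 reads in female knockdown and 46 in male knockdown, a ratio of 0.724 (0.367 to 1.34), and the factor was 0.947 (0.481 to 1.75). Between the Nons libraries, 10 regions had 26 reads in females and 51 in males, a ratio of 0.956 (0.572 to 1.56), against 1.1 (1.09 to 1.11) elsewhere.

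In a fit across all 71887 regions with terms for sex and hairpin (edgeR, quasi-likelihood test), 0 of the 27 regions were called at an adjusted p of 0.05 for either term, against a background of 0%. At an unadjusted p of 0.05, 0 of the 27 regions passed for either term, against 320 of all regions for sex and 296 for hairpin. DESeq2 called 0 of the 27 as well. With 1 residual degree of freedom and a median of 1 to 5 reads per library in these regions, the fit says little about any of them.

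About as many peaks lay near start sites as away from them. Of the 32 peaks, 17 lay within 1000 bp of an annotated start site, or 53.1% (exact Clopper-Pearson interval 34.7 to 70.9). Among the 61930 peaks in windows of autosomal protein-coding genes the share was 23.6% (23.3 to 23.9). Start sites took up more of the windows of the 7 genes, where 14.4% of bases lay within 1000 bp of one, against 9.79% for all protein-coding genes. With overlapping peaks counted once, 13 of 27 regions were near a start site, 48.1% (28.7 to 68.1). Over all autosomal regions in windows of protein-coding genes the share was 23.4% (23 to 23.7). Sox17 contributed 3 of its 4 peaks, Foxa2 4 of 6, Gata4 4 of 9, Gata6 2 of 3 and Sox7 1 of 2 at start sites of their own, and Hnf4a 1 of 8. By list the share was 28.6% in female Nons (2 of 7 peaks, 3.67 to 71), 60% in male knockdown (6 of 10, 26.2 to 87.8) and 60% in male Nons (9 of 15, 32.3 to 83.7), and these intervals overlap.

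Most of the 32 peaks were also richer in CpG than the median autosomal peak. The observed number of CpGs over that expected from base composition, in the central 300 bp, had a median of 0.492 over the 32 peaks and 0.245 over all autosomal peaks, and 24 of the 32 lay above that median of all peaks. GC content differed less, with medians of 56.3% and 55%. Near start sites the CpG medians were 0.639 for the 17 peaks of these genes and 0.299 for all 15721 autosomal peaks there. Among genes Sox17 had the highest median, 0.735 over 4 peaks, then Foxa2 with 0.605 over 6. Gata6 had 0.494 over 3 peaks, Gata4 0.378 over 9 and Sox7 0.35 over 2. Hnf4a was lowest, with 0.236 over 8 peaks, under the median of all autosomal peaks, and 4 of its 8 lay above that median. The single richest peak was that on the coding exon of Gata6, at 1.01. Peaks of 1 gene share their sequence context and some overlap, so no test was made.

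**Figure D5:**
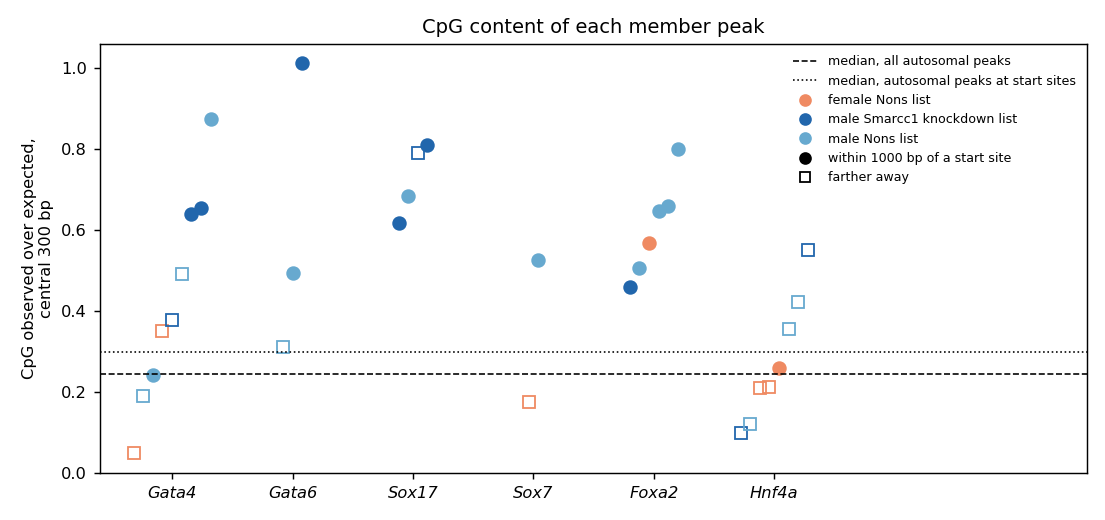
CpG observed over expected in the central 300 bp of each peak (y axis) by gene (x axis). Colours are the peak lists. Filled circles lie within 1000 bp of a start site and open squares farther away. Lines are the medians of all autosomal peaks, 0.245, and of those at start sites, 0.299. All peaks of Gata6, Sox17 and Foxa2 lie above both lines.

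Short motifs of the factors themselves were searched on both strands of the central 300 bp. The GATA family motif, with the letters AGATAA, was in 4 of 32 peaks, or 12.5% (3.51 to 29), against 7.71% of all autosomal peaks, namely in peaks of Gata4, Foxa2 and Hnf4a. The SOX motif ACAATG was in 5 peaks, 15.6% (5.28 to 32.8), against 10.6%. The FOX motif GTAAACA was in 0 of 32, or 0% (0 to 10.9), against 2.44%. The HNF4 motif CAAAGTCCA was in 2 peaks, 6.25% (0.766 to 20.8), against 0.398%, and both are the overlapping peaks at the internal Gata4 start site, so the match is a single site. The GC box GGGCGG was in 8 peaks, 25% (11.5 to 43.4), against 10.8% of all autosomal peaks. At start sites it was in 7 of the 17 peaks of these genes, 41.2% (18.4 to 67.1), against 16.8% (16.2 to 17.3) of all autosomal peaks there. Among the 7 were a pair of overlapping peaks at Gata4 and another at Foxa2, for which the interval does not allow. Also among them was a peak downstream of Foxa2, near a start site of 9030622O22Rik. None of these motifs contains another, and a match is no evidence of binding by the factor.

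The 33 other endoderm genes examined gave a wider view of the lineage. In female knockdown 3 of 33 had a peak (9.09%), in female Nons 19 (57.6%), in male knockdown 20 (60.6%) and in male Nons 25 (75.8%), beside the protein-coding shares given above. Those shares were not matched for window length, and a longer window holds a peak more readily. Windows of the 33 genes ran from 21.9 kb at Apoa1 to 235 kb at Cubn. The median over protein-coding genes was 37.6 kb. Of 14 other transcription factors, 0 had a peak in female knockdown, 7 in female Nons, 11 in male knockdown and 11 in male Nons. The 12 products of visceral and parietal endoderm had 3 genes with a peak in female knockdown, 9 in female Nons, 8 in male knockdown and 9 in male Nons. The 7 signals and surface proteins had 0 in female knockdown, 3 in female Nons, 1 in male knockdown and 5 in male Nons. Among the genes with most peaks were the basement membrane collagens Col4a2 with 31 and Col4a1 with 19, the endocytic receptor subunit Amn with 12, the apolipoprotein Apoa1 with 11 and the laminin Lama1 with 9. Per 10 kb of window Apoa1 had 5.03 and Amn 4.74, more than the 2.49 of Foxa2, while Lama1 had 0.619.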

How the data were processed

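Smarca4 ChIP-seq of 4 mESC groups (1 library each) and 1 input was analysed from the 4 peak lists. Per the study's methods, the authors used a ChIP-IT High Sensitivity kit and Smarca4 antibody D1Q7F, single-end sequencing, trim_galore, bowtie2 on mm10, and Seqmonk for duplicate removal and peak calling. A reporting form of the study names tophat for the alignment. Tools named in the submitters' processing notes, with no version, were MACS2, Bowtie2 and bcl2fastq. Each list was called in 1 library, so absence from a list does not show absence of Smarca4, and reads removed as duplicates are not seen.

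For ChIP libraries the deposited unit is signal in each region, which the authors gave for all 4 libraries in each list and scaled to input depth. All were whole multiples of 1 step per library (100% within 0.01 reads), and division by it gave whole reads. The deposited input values are counts of reads. No fold, p or q was in the lists. Fold over input is the scaled value over the input reads plus 1, a measure set after the files were seen.

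The genes and lists were chosen with earlier results of these data known. Windows used GENCODE vM21 and overlap from 1 bp. Regions with 50 or more input reads were left out of ratios and of the fit. Regions entered once, by the peak with most ChIP reads. The count test on recovered reads used edgeR 4.0.16 in R 4.3.3 (glmQLFit, sex plus hairpin, library sizes proportional to depth, Benjamini-Hochberg), with TMM and DESeq2 1.42.0 as alternatives, and was checked on simulated data. Intervals were computed with scipy 1.17.1. Named were all 7 genes, with reads in each library for peaks within 1000 bp of a start site of a member and for the peak with most reads of each gene and list, and the 6 other endoderm genes with most peaks, of which 1 is not reported here. Sequence from 1 chromosome, that of Gata6, is not reported here.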

Additional observations from a re-analysis of the deposited data

How the results depend on the processing

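The counts of peaks were the results that moved most. With the 50% of each list highest by fold over input, the peaks at the 7 genes numbered 4 in female Nons, 8 in male knockdown and 8 in male Nons. Thinned to the depth of female knockdown, the expected peaks were 1.98 in female Nons, 3.75 in male knockdown and 1.29 in male Nons, and the expected genes with a peak were 1.61 in female Nons, 3.13 in male knockdown and 1.23 in male Nons. Windows of 5 kb or 25 kb, or leaving out peaks with 20 or more input reads, kept every count within 1.5 times. In regions that neither compared library had called, the female over male ratio was 0.724 for knockdown and 1.56 for Nons. Leaving out each gene in turn gave ratios from 0.562 (without Hnf4a) to 1.08 (without Foxa2) for female knockdown over Nons, from 0.738 (without Gata4) to 1.53 (without Foxa2) for male knockdown over Nons, from 0.297 (without Hnf4a) to 0.539 (without Foxa2) for female over male knockdown, and from 0.913 to 0.995 for female over male Nons. The share near a start site lay between 42.3% (without Foxa2) and 66.7% (without Hnf4a), was 46.9% with start sites of the 7 genes alone, 43.8% at 500 bp and 62.5% at 2000 bp. Leaving out genes for this share, own start sites alone and overlapping peaks counted once were chosen after seeing the data. Of 111 alternative values 10 moved beyond the interval of the value reported or, for counts, by more than 1.5 times. The ratios whose intervals include 1, namely both of knockdown over Nons and that of female over male Nons, crossed 1 under some of the alternatives given here. The fit of sex plus hairpin compares hairpins within sex, and no block by replicate number could be added with 1 library per group. Depth limits every comparison, since 22 of the 32 peaks rest on fewer than 10 reads in the library that called them.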
